A study of Mus musculus with 2 samples.

Results

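The basal keratin genes Krt5, Krt14, Krt15 and Krt17 were examined in Pparg-cKO and control ureters at E18.5. They were taken by gene name from the array design, with every probe that bears the name, and make up 4 of 29923 genes measured. The 4 genes were read by 5 probes, Krt5 by 2 and the others by 1 each, and every probe was printed on 4 spots per array. All 4 entered the test across 22499 genes, and 3 of them (Krt5, Krt14 and Krt15) were also bright enough for the fold rule, which Krt17 was not. Of 52 keratin genes on the array, recognised by symbol, 37 were tested.

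Keratins are the intermediate filament proteins of epithelial cells. A filament is built from obligate pairs of a type I and a type II keratin, and the pair that a cell makes marks its layer and its state. KRT5 (type II) with KRT14 (type I) is the pair of the basal layer of stratified epithelia such as the epidermis. Both are also made by basal cells of urothelium, the lining of the ureter, KRT14 not by all of them. KRT15 is a further type I keratin of basal cells, and KRT17 is a type I keratin known from basal cells, hair follicles and wounded epidermis.

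The mice carried floxed Pparg alleles, and the question was which transcripts depend on this nuclear receptor in the ureter. The Pparg-cKO embryos were Pax2-cre/+; Pparg(fl/fl), and Pax2-cre deletes in the nephric duct and in the epithelia that derive from it, so the mesenchyme of the ureter was not targeted. Control embryos were littermates without Cre, labelled Pparg(fl/?), with the state of the other allele not given there. All were of the NMRI strain, and both genotypes thus carried at least 1 floxed allele. Each of 2 two-colour arrays held RNA from a pool of Pparg-cKO ureters and from a pool of control ureters of the same sex, female on replicate 1 and male on replicate 2, with the dyes exchanged between the arrays. Sex, dye orientation and array changed together and cannot be told apart, and n = 2 below means 2 arrays.

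Every direction below follows the sign of the value table deposited by the authors, in which each column is headed as a comparison of Pparg-cKO with control. The dye labels give the reverse orientation for each array. The sign of the table is taken as the likely one, because the study's text describes changes in mutant ureters with that orientation. Should the labels be the correct source, higher and lower change places everywhere, as do the names of the pools, and only sizes, counts and p-values hold. Loss of the floxed exons could not be checked, since the only Pparg probe lies outside them. This probe on chromosome 6 (mm9, 115440213 to 115440272) starts at base 1562 of the transcript, downstream of the floxed exons 2 and 3. Signals were 12357 (Pparg-cKO) and 6113 (control) for the female pools and 12930 and 6688 for the male pools, or 1.96-fold higher in Pparg-cKO. A transcript without the deleted exons would be read by the same probe.

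The tissue named by the labels was represented by its markers. All 12 genes of a list of pan-epithelial markers, all 8 superficial cell genes of the urothelium and all 6 smooth muscle markers were well above background in all 4 pools. On the arrays, 66.2% to 67.6% of spots were well above background in red and 76.8% to 77.3% in green, and 0 spots were saturated.

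The probe sequences are shown because each ratio below rests on a single stretch of 60 bases or, for Krt5, on 2 such stretches. All 5 were placed on the minus strand of mm9 by the array design, and their accessions carried the same symbols in RefSeq (GRCm38.p6). The probe for Krt14 lies at chr11:100064683-100065288, a span of 606 bases for 60 bases of probe, so it crosses a splice junction. The probe for Krt15 lies at chr11:99993331-99993390, and its capitals mark the letters of a stop codon at its very end. Of the probe for Krt17, at chr11:100117535-100117594, and of the brighter probe for Krt5, at chr15:101537514-101537573, only the last 30 of 60 bases are printed, with the polyadenylation signal AATAAA in capitals. The dimmer probe for Krt5 lies upstream in the transcript, at chr15:101542056-101542115, and starts at base 677, against base 2119 for the brighter probe.
Krt14: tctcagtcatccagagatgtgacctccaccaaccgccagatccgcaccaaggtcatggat
Krt15: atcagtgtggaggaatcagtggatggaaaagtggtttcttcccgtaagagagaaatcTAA
Krt17: ttctgaacactgaAATAAAtgaccatggtg
Krt5, brighter probe: tgacttcctccagagtctgtccAATAAAat
Krt5, dimmer probe: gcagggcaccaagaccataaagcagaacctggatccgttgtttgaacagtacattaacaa
Keratin genes resemble each other, but no full probe shared more than 14 consecutive bases with a probe of another gene on the array. Cross-hybridisation was not tested.

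Krt15 and Krt14 were higher in the Pparg-cKO pool on both arrays and passed both the limma test and the fold rule. Krt17 was higher by a similar ratio on both arrays at a very low signal and missed the threshold of the test. Krt5, the type II partner of KRT14, was lower in the female and higher in the male Pparg-cKO pool. In limma, 2 of the 4 genes were called higher and 0 lower, where 0.382% of all 22499 genes tested were called higher and 0.369% lower. By the fold rule, which asks for a 1.5-fold or larger difference of one sign on each array and for 100 or more processed signal units in the brighter channel, 2 of the 3 genes bright enough were higher, where 0.792% of 14015 such genes were higher and 1.05% lower. Of the 4 genes, 3 were higher on both arrays, a direction shared by 26.6% of all genes tested. The median over the 4 genes of the mean log2 ratio was 0.92, against 0.0094 over all genes tested.

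**Figure D1:**
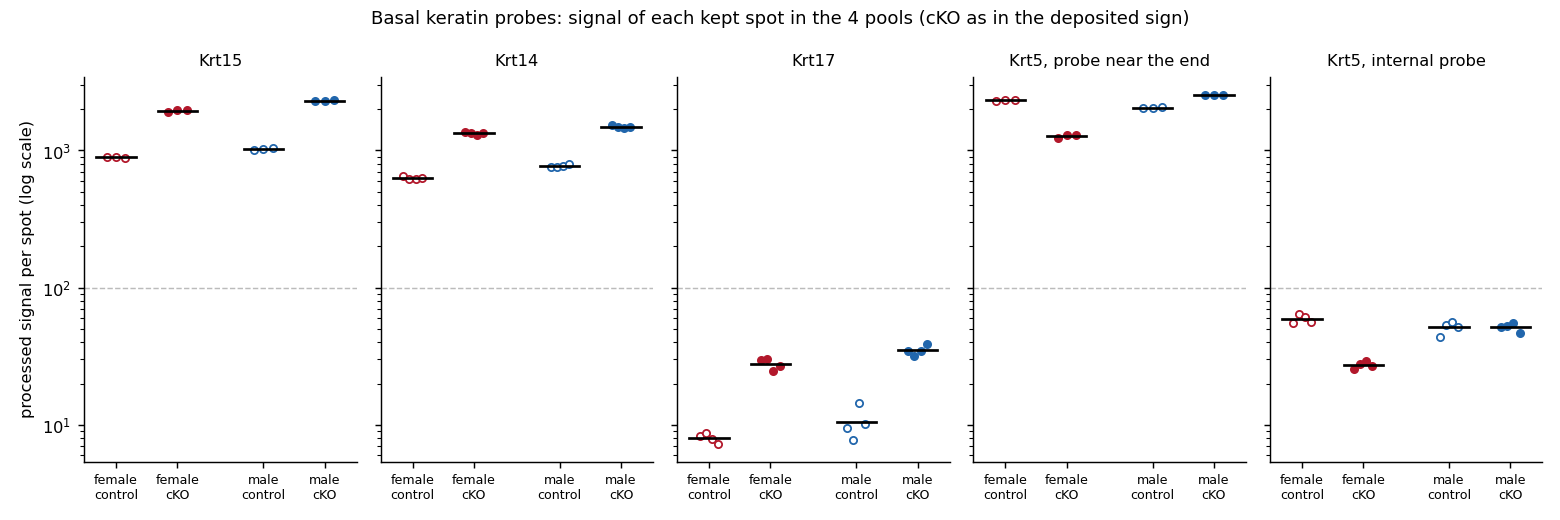
Processed signal of each kept spot on a log scale for the 5 basal keratin probes, with female pools in red, male pools in blue, control pools as open circles, Pparg-cKO pools as filled circles (deposited sign), black bars for the mean over spots and a dashed line at the signal minimum of 100. Krt15 and Krt14 spots of the Pparg-cKO pools lie above those of the control pool of the same array, while both Krt5 probes are lower in the female Pparg-cKO pool and the Krt17 probe stays below 100.

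The type I keratin Krt15 had the most even ratio of the 4 genes. Its processed signal, corrected for background and dye by the scanner software, was 1940 in the female Pparg-cKO pool and 889 in the female control pool. In the male pools it was 2309 and 1026. Both Pparg-cKO pools lay above both control pools, and the SD over the 3 kept of 4 spots was at most 40.4 in any pool. Log2 ratios of 1.17 (female) and 1.19 (male) gave a mean of 1.18 ± 0.01 (SD, n = 2), or 2.26-fold higher. The 95% interval of limma ran from 0.91 to 1.44, the adjusted p was 0.0220, and the mean ranked 72 from the top among 22499 genes. With scanner-processed signals in place of normexp and loess the ratio was 1.15 and the adjusted p in limma 0.0683, and with the deposited table they were 1.14 and 0.533, so the call is lost in both.

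Krt14, the type I partner of KRT5 in basal cells, gave 1335 signal units in the female Pparg-cKO pool and 631 in its control, and 1489 and 773 in the male pools. Here too both Pparg-cKO pools lay above both control pools. All 4 spots were kept on each array, and the log2 ratio of single spots ran from 0.99 to 1.23 (female) and from 0.80 to 1.03 (male). The mean log2 ratio was 1.00 ± 0.15 (SD, n = 2; 1.11 female, 0.90 male), or 2.01-fold higher, with a 95% interval of 0.72 to 1.29 and an adjusted p of 0.0427 in limma. The adjusted p was 0.0962 with scanner-processed signals, 0.0803 without a filter on dim probes and 0.533 with the deposited table, so the call rests on these settings.

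Krt17 was measured near the lower end of the scale. Its signal was 27.9 in the female Pparg-cKO pool and 8.04 in the female control pool, and 34.9 and 10.5 in the male pools. All spots were well above background except 1 of 4 in the male control pool. The ratio therefore depended on the treatment of background more than for any other of the 4 genes. With normexp and an offset of 50 signal units, more than the signals themselves, the mean log2 ratio was 0.84 ± 0.09 (SD, n = 2; 0.78 female, 0.90 male), or 1.79-fold, and the adjusted p was 0.0595 in limma. Without the offset it was 1.28, with an adjusted p of 0.000439 in limma, and with scanner-processed signals 1.78, with an adjusted p of 0.0248. The sign was the same on both arrays in each of these settings. A gene this dim cannot pass the fold rule, whatever its ratio.

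Krt5, the type II keratin of the basal pair, differed in sign between the arrays. The brighter probe gave 1275 signal units in the female Pparg-cKO pool and 2315 in the female control pool, with 3 of 4 spots kept. In the male pools it gave 2542 and 2049. The female Pparg-cKO pool was the lowest and the male Pparg-cKO pool the highest of the 4, with both control pools between them. Log2 ratios of -0.86 (female) and 0.35 (male) gave a mean of -0.25 ± 0.85 (SD, n = 2), and limma a 95% interval from -0.99 to 0.49 with an adjusted p of 0.910. The interval holds both a fall of 1.99-fold and a rise of 1.40-fold. The SD between arrays ranked 50 from the top among the 14015 bright genes, whose median SD was 0.14.

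The dimmer Krt5 probe was also lower in the female Pparg-cKO pool than in its control. Signals were 27.5 (Pparg-cKO) and 59.2 (control) for the female pools and 51.6 and 51.4 for the male pools. The female log2 ratio was -0.74, with single spots from -0.81 to -0.67. The male ratio was 0.03, with single spots from -0.17 to 0.32. The probes thus both read Krt5 lower in the female Pparg-cKO pool, and differed on the male array, where the brighter probe gave spots from 0.24 to 0.44. Read by dye rather than by genotype, the brighter Krt5 probe was lower in red than in green on both arrays, with log2 red over green ratios of -0.86 and -0.35. For Krt14, Krt15 and Krt17 this ratio changed sign with the dye exchange. A dye effect on Krt5 and a difference between the sexes cannot be told apart with these arrays.

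**Figure D2:**
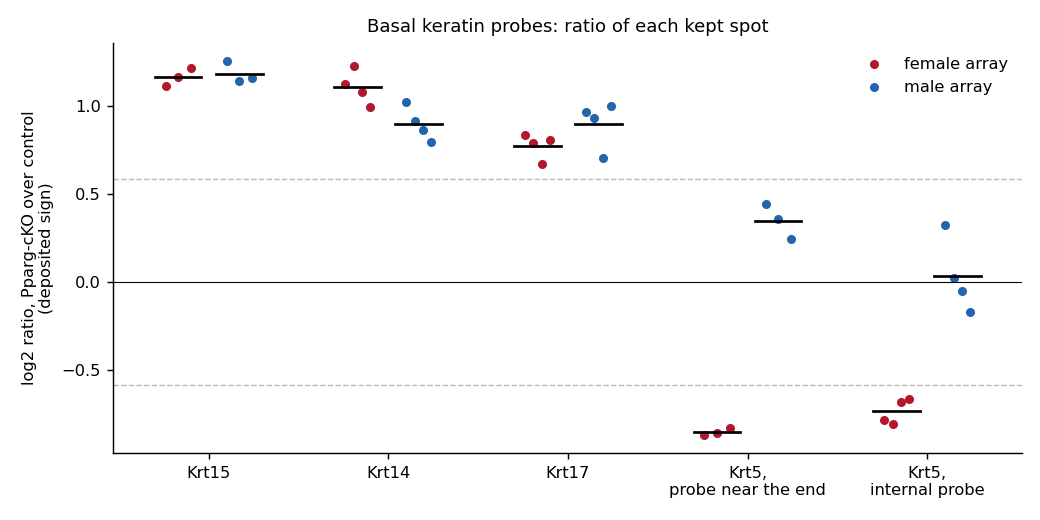
Log2 ratio of Pparg-cKO over control (deposited sign) of each kept spot for the 5 probes, female array in red and male array in blue, with black bars for the mean over spots and dashed lines at 1.5-fold in each direction. Krt15, Krt14 and Krt17 lie above the upper line on both arrays, while Krt5 lies below the lower line on the female array with both probes and between the lines on the male array.

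The ratio of the partner Krt14 was above that of Krt5 on both arrays. The log2 ratio of Krt14 minus that of Krt5 (brighter probe) was 1.96 (female) and 0.55 (male). For Krt15 minus Krt5 it was 2.02 and 0.84, and for Krt17 minus Krt5 1.63 and 0.56. The order of Krt14, Krt15 and Krt17 among themselves was less clear. Krt14 lay 0.06 (female) and 0.29 (male) below Krt15, and Krt14 and Krt17 were equal to within 0.01 on the male array. The place of Krt17 rested on the offset: without it Krt17 was at 1.20 (female) and 1.36 (male), and with scanner-processed signals at 1.80 and 1.77, above Krt14 and Krt15 on both arrays in each case. These are differences between the changes of the genes, not between their levels, since each probe has its own brightness, and they were not tested.

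Among the 20 bright keratin genes, Krt15 ranked 4 and Krt14 ranked 5 from the top by mean log2 ratio. Above them stood Krt4 (2.53), a type II keratin of mucosal epithelia, Krt6a (2.31), a type II keratin of stressed and proliferating stratified epithelia, and Krt78 (1.26). Krt5 ranked 17. The lowest was Krt20, the keratin of superficial urothelial cells, at -3.09 (adjusted p 0.00620 in limma), then Krt18 at -0.79 (adjusted p 0.173), a type I keratin of simple epithelia, Krt80 at -0.32 and Krt81 at -0.25, with Krt5 at -0.25 between the latter 2. Of the 48 other keratin genes, 33 were tested, and limma called 5 higher and 1 lower, beside 0.382% and 0.369% of all genes tested. Of 17 bright ones, 6 were higher and 1 lower by the fold rule, beside 0.792% and 1.05% of bright genes. Over the 33 tested the median log2 ratio was 0.12, against 1.18 for Krt15 and 1.00 for Krt14.

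**Figure D3:**
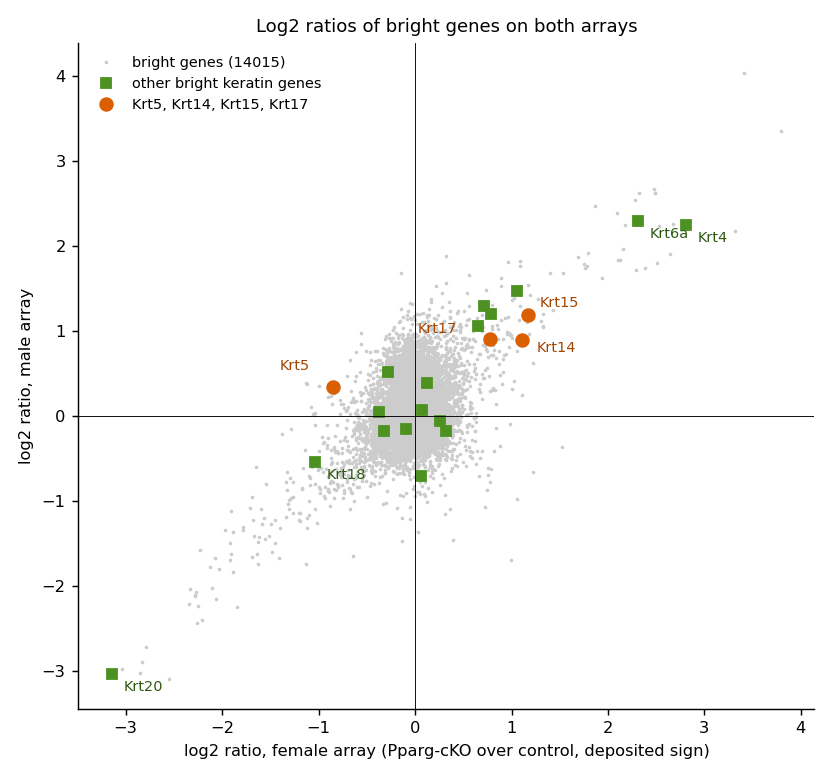
Log2 ratio on the female array (x axis) against the male array (y axis) for 14015 bright genes in grey, other bright keratin genes as green squares and the 4 basal keratins in orange, Krt17 included although it is below the signal minimum. Krt15, Krt14 and Krt17 lie in the upper right with positive ratios on both arrays, Krt5 lies in the upper left at -0.86 and 0.35, and Krt20 lies at the lower left end.

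Krt14, Krt15 and Krt17 lie in the type I keratin cluster of chromosome 11 and Krt5 in the type II cluster of chromosome 15. On chromosome 11 the tested genes from Krt15 to Krt42 follow each other as Krt15, Krt19, Krt9, Krt14, Krt16, Krt17 and Krt42. Krt19, a type I keratin of simple and basal epithelia, had a log2 ratio of 1.00 (0.71 female, 1.29 male; adjusted p 0.121 in limma), and Krt42 of 0.85 (0.65 female, 1.06 male; adjusted p 0.111). Of the other genes between the basal keratins, Krt9, a keratin of palms and soles, had -0.03 and Krt16, a partner of KRT6 proteins, 0.10 (0.26 female, -0.06 male). On the other side of Krt15 lay Krt13 with 0.26, Krt36 with 0.04 and Krt35 with 0.20. Beyond Krt42 lay Gm12349 with 0.03 and Eif1 with 0.20.

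On chromosome 15, Krt5 lies next to the 2 tested genes with the highest ratios of its neighbourhood. Krt6a, the direct neighbour, was 4.95-fold higher (2.31 female, 2.30 male; adjusted p 0.00620 in limma). Krt6b was 4.47-fold higher (2.02 female, 2.30 male; adjusted p 0.00728), at a signal below the fold rule's minimum. KRT6 proteins are near-identical, so their probes may share transcripts. Gm5478, the next gene on that side, had 0.20. On the other side, Krt72 had a mean log2 ratio of 0.09, Krt73 of -0.12 and Krt2, an epidermal keratin, of -0.05.

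**Figure D4:**
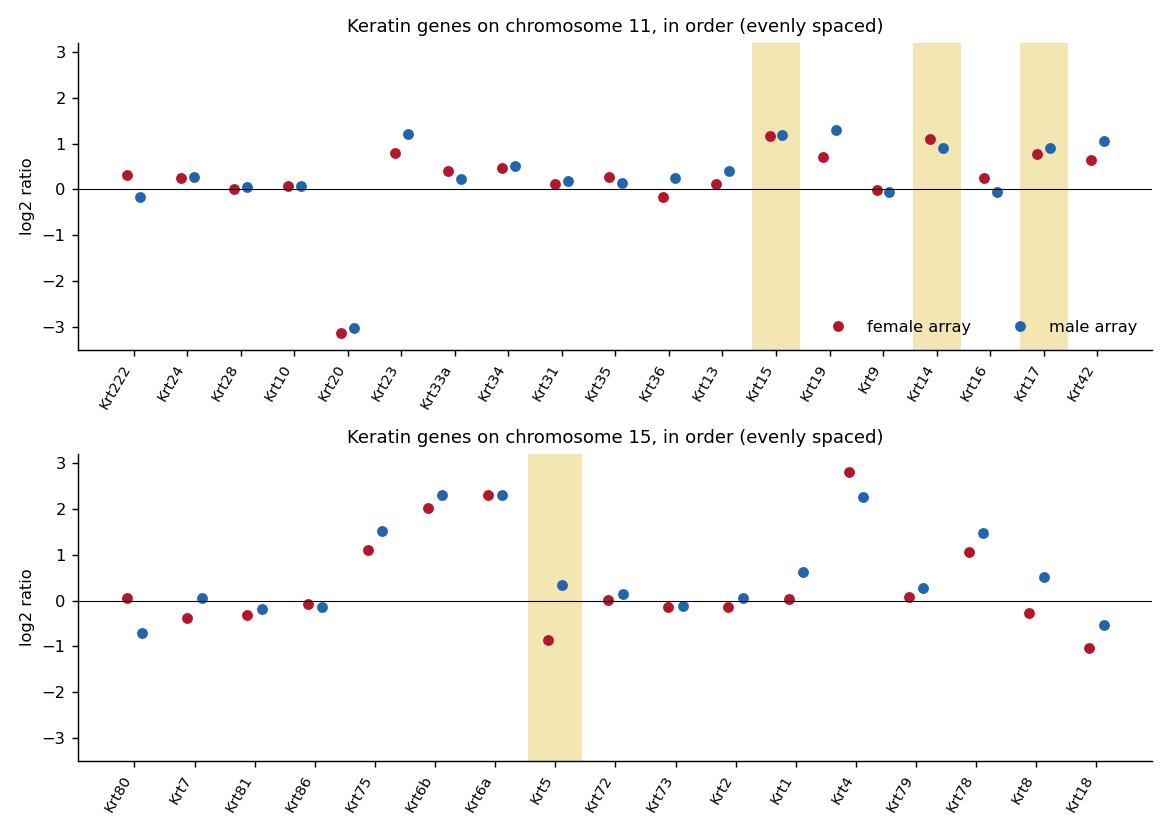
Log2 ratio (Pparg-cKO over control, deposited sign) of the tested keratin genes of chromosome 11 (upper panel) and chromosome 15 (lower panel), placed in chromosome order at even spacing, female array in red and male array in blue, with the basal keratins shaded. Krt15, Krt14 and Krt17 stand at 0.78 or more on both arrays with Krt9 and Krt16 near 0 between them, and Krt5 stands beside Krt6a at 2.31 and 2.30.

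Other keratins of stratified, simple and superficial epithelial cells made a mixed list. Of 10 such genes (Krt4, Krt6a, Krt6b, Krt7, Krt8, Krt13, Krt16, Krt18, Krt19 and Krt20), all tested, limma called 3 higher (Krt4, Krt6a and Krt6b) and 1 lower (Krt20). The fold rule took Krt4, Krt6a and Krt19 as higher and Krt20 as lower. The median log2 ratio of the list was 0.19.

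Other genes of the basal cell were set beside the keratins. Of 18 basal epithelial genes, among them adhesion, basement membrane and receptor genes, 17 were tested. In limma 0 were called higher and 1 lower, and by the fold rule 1 was higher and 1 lower. At an unadjusted p under 0.05 the list had 6 higher and 2 lower genes, where 4.31% of all genes tested were higher and 4.2% lower. The median log2 ratio was -0.08 for the female pair, 0.54 for the male pair and 0.28 for the mean, below the 0.92 of the 4 keratins. The gene lower by the fold rule was Aqp3, a channel for water and glycerol, at -1.60 and -1.09 (adjusted p 0.0437). Col17a1, a hemidesmosome collagen, had a mean of 0.78 and Itgb4, the integrin of the same junction that anchors keratin filaments to the base of the cell, of 0.77, the latter from -0.14 (female) and 1.69 (male). Cdh3 (P-cadherin) had 0.71 and Dsc3, a desmosomal cadherin of basal layers, 0.70. None of these last 4 passed either criterion.

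The proteins that link keratin filaments to junctions were measured next to the filaments. All 10 linker genes were tested, and limma called 0. On both arrays 8 were higher, beside 26.6% of all genes tested. At an unadjusted p under 0.05 there were 5, all higher, beside 8.51% of all genes tested in either direction. Their median log2 ratio was 0.18 (female) and 0.75 (male). Pkp1, a desmosomal plaque protein of stratified epithelia, passed the fold rule as higher (1.08 female, 1.83 male) with an adjusted p of 0.0685 in limma. Dsp, the desmoplakin to which keratins attach at desmosomes, had 0.32 and 1.88. Evpl and Ppl, the plakins envoplakin and periplakin, had means of 0.77 and 0.63, and Plec and Dst, whose products hold keratins at hemidesmosomes, of 0.63 and 0.43.

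Transcription factors known to bind or control basal keratin promoters were also listed. Of 12 such genes 11 were tested, and 0 passed limma or the fold rule. At an unadjusted p under 0.05, 4 were higher and 2 lower, beside the same 8.51% of all genes. Klf5, a zinc finger factor of proliferating epithelia, had log2 ratios of 0.16 (female) and 1.35 (male). Tfap2a, an AP-2 factor, had 0.30 and 0.94. Trp63, the master regulator of basal cells and of Krt5 and Krt14, had -0.53 and -0.44, with a mean of -0.48 that limma left at an adjusted p of 0.233. Its sign was thus opposite to that of Krt14 and Krt15 on both arrays, without passing the test. Klf4 had a mean of 0.45, Pou3f1 of 0.38 and Nfe2l2 of -0.34.

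Markers of other cells were set beside the basal keratins. The ureter is a mixed tissue, and a lower or higher share of cells of a type and a change of RNA per cell cannot be told apart in pooled tissue. Over the 12 pan-epithelial markers the median log2 ratio was 0.09 (female) and 0.56 (male). On both arrays 8 were higher, beside 26.6% of all genes tested. Limma called 1 of the 12, the tight junction gene Cldn3 at 2.24. Their summed signal was 13042 against 12079 in the female pools and 18691 against 12160 in the male pools, the Pparg-cKO pool first. Relative to the median of these markers on the same array, Krt14 was at 1.02 (female) and 0.34 (male), Krt15 at 1.07 and 0.63, Krt17 at 0.68 and 0.35, and Krt5 at -0.95 and -0.21. The signs of Krt14, Krt15 and Krt17 were kept on both arrays, and Krt5 then had the same sign on both. This reference was added after the data were seen, and the part of the epithelial markers in the male ratios was not tested.

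The superficial cell genes went the other way. The median was -1.26, and all 8 were lower on both arrays, beside 26.2% of all genes tested. By the fold rule 6 were lower, beside 1.05% of bright genes. Limma called 3 lower (Krt20, Ly6d and Upk3b), beside 0.369% of genes tested. Besides these, Upk1a (-1.51), Upk1b (-1.02) and Psca (-0.89) were lower by the fold rule. Their summed signal was 48545 against 92020 in the female pools and 52983 against 79000 in the male pools.

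Epidermal markers were included because Krt14 and Krt17 are also keratins of skin. Of 10 genes 9 were measured and tested, with a median log2 ratio of 0.07, and 8 were well above background in all 4 pools. Ivl, a precursor of the cornified envelope that urothelium also expresses, was lower (-1.91 female, -1.63 male, adjusted p 0.0116 in limma). Lor, a further envelope protein, had 1.14 and 1.82 (adjusted p 0.0580) at a signal too low for the fold rule. Krt1 had 0.34 and Lce1a1 -0.37. The summed signal of the list was 1912 against 2524 in the female and 1765 against 2566 in the male pools, the Pparg-cKO pool first. Ivl alone gave 324 against 1279 in the female and 403 against 1306 in the male pools. Without Ivl, a sum taken after the values were seen, the other 8 genes gave 1588 against 1245 and 1362 against 1261, so the lower sum rested on this gene.

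The mesenchymal and smooth muscle markers had no gene called in limma or past the fold rule. Over the 8 mesenchymal markers the median log2 ratio was 0.10, with 2 at an unadjusted p under 0.05 in limma, beside 8.51% of all genes tested. Col1a1, a fibrillar collagen chain, had the largest mean of these markers at 0.61. The 6 smooth muscle markers had a median of -0.18. For 8 proliferation markers it was 0.03, with 0 called in limma and 0 at an unadjusted p under 0.05. The largest means in either direction were Cdk1 at -0.15 and Mki67 at 0.15.

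**Figure D5:**
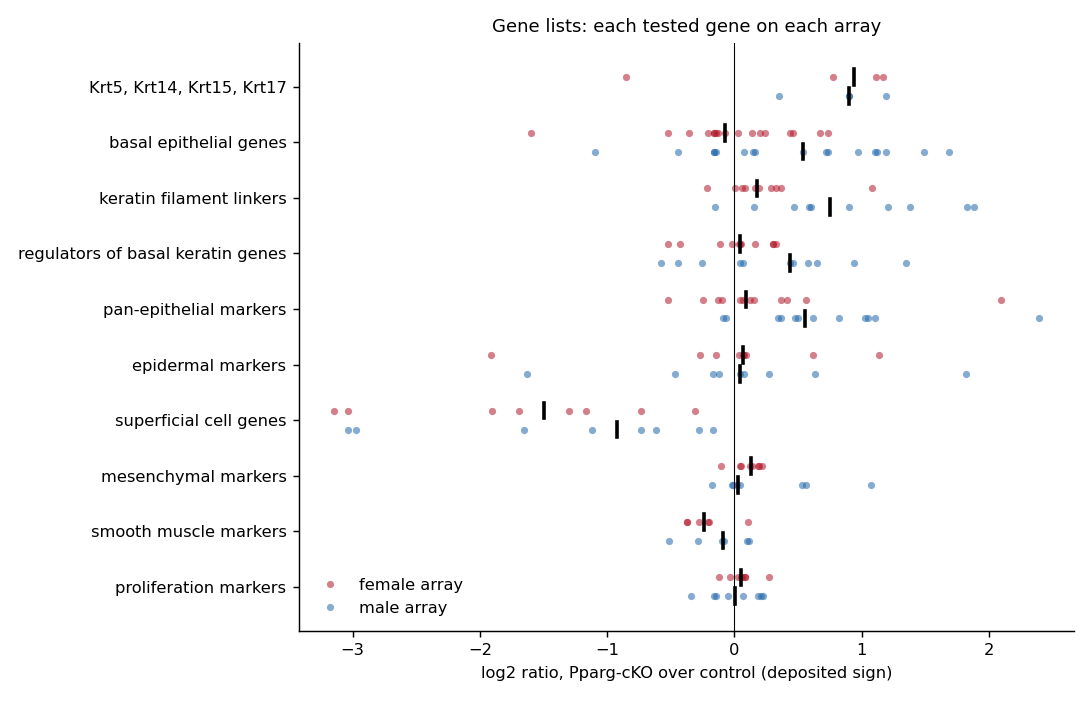
Log2 ratio (Pparg-cKO over control, deposited sign) of each tested gene of 9 gene lists and of the 4 basal keratins, female array in red and male array in blue, with black ticks for the median on each array. The basal keratins have medians of 0.94 and 0.90, the basal epithelial genes of -0.08 and 0.54, and the superficial cell genes of -1.50 and -0.93.

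The genes closest to each basal keratin in both ratios were taken from the 14015 bright genes by Euclidean distance over the 2 arrays. For Krt15 they were Cfc1, Dsc2 and Fam46b, the farthest at a distance of 0.13. For Krt14 they were Dach2, Plscr1 and Platr21, with Dach2 at 0.01. For Krt17 they were Mboat1, F3 and Anxa3, and for Krt5 Gm28856, Tbc1d2 and Col25a1, whose ratios on the female array were between -0.90 and -0.84. No keratin was among the 3 closest genes of any of the 4. With 2 arrays such nearness is a description of 2 values and no more.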

How the data were processed

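RNA of Pparg-cKO and control ureter pools was compared on 2 two-colour arrays. Per the file headers, the deposited scanner files gave a linear intensity for each spot and dye, from Agilent Feature Extraction 10.7.3.1. The deposited value table held signed fold changes per probe, made by the authors. It correlated with the log2 red over green ratio after normexp and loess at 0.905 (replicate 1) and -0.932 (replicate 2). These signs set the direction used. On bright probes the correlation with the processed ratio was 0.997 and -0.998. Mean signals were corrected with normexp (offset 50, median background) and loess in limma 3.58.1 under R 4.3.3. Outlier spots were left out, spots averaged and a gene read by its brightest probe. The limma test (lmFit, eBayes, two-sided) used genes that 1 or both channels of each array read well above background, with Benjamini-Hochberg adjustment and a threshold of 0.05. The test was also run on data simulated under the model of limma itself, which cannot show how it performs on these arrays. The 2 arrays limit the precision. Each p-value rests on the spread between them, which limma moderated toward that of all genes tested. The prior had 4.00 degrees of freedom, beside 1 for the gene itself. No other source of variation was measured. Basal keratins and gene lists were chosen with earlier results of these data known. Up to 6 genes per list were named, those past the fold rule first and then the largest, besides the 5 highest and lowest keratins, 3 neighbours each side and 3 nearest genes. The values of 1 list gene that the rule would name are not reported here. No column was left unmapped. Alternatives were other signals, normalisations, filters, summaries and single arrays.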

Additional observations from a re-analysis of the deposited data

Results flagged for a closer look

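Of the 4 basal keratins, Krt5 alone had ratios of opposite sign on the arrays, with every kept spot of the brighter probe on the side of its array. The log2 ratio was 1.20 higher on the male than on the female array (-0.86 female, 0.35 male). This difference was not tested, since each sex had 1 array, and sex, dye orientation and array cannot be told apart. The same difference was -0.21 for Krt14, 0.02 for Krt15 and 0.13 for Krt17.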

How the results depend on the processing

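Krt15, Krt14 and Krt17 were higher and Krt5 had a negative mean in all 7 alternatives that used both arrays. Over these and the setting of the report, mean log2 ratios ran from 1.14 to 1.22 for Krt15, 1.00 to 1.08 for Krt14, 0.84 to 1.84 for Krt17 and -0.30 to -0.23 for Krt5. Some alternatives could not move a ratio. Dropping the filter on dim probes changed no ratio, nor did the median over probes for Krt14, Krt15 and Krt17, with 1 probe each. Keeping outlier spots left Krt14 and Krt17 unchanged, since none of their spots was flagged. With scanner-processed signals the adjusted p in limma missed the threshold for Krt14 (ratio 1.01, p 0.0962) and Krt15 (1.15, p 0.0683) and passed it for Krt17 (1.78, p 0.0248), which left 1 of the 4 genes called. Normexp without an offset also called Krt17 (1.28) and gave 571 genes in all, against 169. Without a filter on dim probes Krt14 (1.00) was lost, 1 of the 4 genes was called, and 94 genes in all. With the deposited table (Krt14 1.02, Krt15 1.14, both p 0.533) 0 genes and 0 of the 4 were called, with 2101 genes and 3 of the 4 at an unadjusted p under 0.05. Values there were equal on both arrays for 1177 tested genes, and the cause of the 0 was not tested. Relative to the pan-epithelial median, added later, means were 0.68 for Krt14, 0.85 for Krt15 and 0.51 for Krt17. Single arrays allow no test. They gave 0.90 to 1.11 for Krt14, 1.17 to 1.19 for Krt15, 0.78 to 0.90 for Krt17 and -0.86 to 0.35 for Krt5, which was reversed without replicate 1 (0.35). The fold rule took 258 genes on both arrays and 444 to 1253 on 1 array. At 2-fold it took 112, and 1 of the 4 genes. The test is itself paired, since each array compares a Pparg-cKO pool with a control pool of the same sex. No further pairing was possible. Krt17 lies where signal over background limits the ratio.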
